A study of Homo sapiens with 48 samples.

Results

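CAL27 and A431 squamous carcinoma cells were compared for the loss of each gene knockout during 3 weeks in culture, with 2 cultures of each line. The comparison took these 4 samples out of 48 in the series and every one of the 327 genes with a value, from a guide RNA library that targeted 334 genes and held 136 non-targeting guides. A431, written A-431 in the labels, is a human epidermoid carcinoma line known for a very high level of the epidermal growth factor receptor, and CAL27 is a human tongue carcinoma line. Both lines stably carried the Cas9 nuclease from a lentivirus under blasticidin selection, received the same pooled guide virus at a multiplicity of infection of 0.3, and were selected with puromycin. No culture had a drug treatment or a targeted gene of its own, so the labels separate the groups by line only. Each line was a Cas9 population of its own, for which the labels name no cloning step, with its own infection and initial samples. The part of these in a difference cannot be told apart from that of the line. Each culture was set by the authors against the 2 initial samples of its line, frozen after selection, so the error of the initial samples is in no test below. Whether the 2 cultures of a line began as separate flasks is left unsaid in the labels, so a p-value here reflects the spread of these samples alone, which may be technical.

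In a pooled knockout screen at low multiplicity most cells carry 1 guide, Cas9 cuts the gene that the guide names, and faulty repair usually destroys that gene. Cells that need the gene divide more slowly or die, so the guide becomes rare in the DNA of the population, and cells that grow better without the gene make its guide more common. Genes of DNA replication, transcription and protein synthesis are needed by almost every dividing cell, while the need for a chromatin enzyme or a growth factor receptor differs between lines. The tables hold the abundance of guides and not of RNA, so markers of the cell type could not be checked in these samples.

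The value of a gene is its deposited log fold change from the initial to the later sample, minus the median of the 327 genes in that culture. Its log base is unstated in the sources used here, so differences are in log units and are not turned into folds. A negative value is read as loss of the knockout, a direction the tables do not state. It rests on the 21 core fitness genes, whose median was -0.93 in A431 and -1.31 in CAL27. The medians taken off were -0.37 and -0.36 in A431 cultures a and b and -0.47 and -0.49 in CAL27 cultures a and b. The non-targeting guides stood at 0 before this step, so a gene near the library median was still below them. Sequencing depth is unknown, because the tables hold no read counts. The 2 value columns of a line have no replicate numbers and are called culture a, the first value column of the line's table, and culture b. Pearson correlations across genes, which are not independent replicates, were 0.79 between the A431 cultures, 0.92 between the CAL27 cultures and 0.67 to 0.73 between cultures of different lines. Cultures of a line share their initial cells, so the correlations within and between lines are given side by side only. The median absolute difference between the cultures of a line was 0.18 in A431 and 0.13 in CAL27, and the SD over genes was 0.50 to 0.51 in A431 and 0.57 to 0.59 in CAL27.

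The largest line difference was that of EZH2, whose knockout was strongly lost from A431 and stayed near the library median in CAL27. In the other direction stood 9 genes of DNA replication, cell division, transcription and translation whose knockouts were lost more from CAL27: PCNA, MYC, YY1, MCM5, PABPC1, RPS19, MYBL2, CLSPN and CKS2. In limma with Benjamini-Hochberg adjustment at 0.05 over 327 genes, 9 genes were lower in CAL27 (2.75% of those tested) and 1 was higher (0.306%). At an unadjusted p under 0.05, 45 genes were lower (13.8%) and 29 were higher (8.87%). The 4 cultures leave 2 residual degrees of freedom, and an exact two-sided permutation test of 2 against 2 cannot go below p = 0.33, so each call rests on the spread that limma shares across genes. The count was sensitive to scale and to single cultures: dividing each column by the median of its core fitness genes left 0 calls in either direction, and leaving out any 1 culture left 0 lower calls and 0 or 1 higher call.

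**Figure D1:**
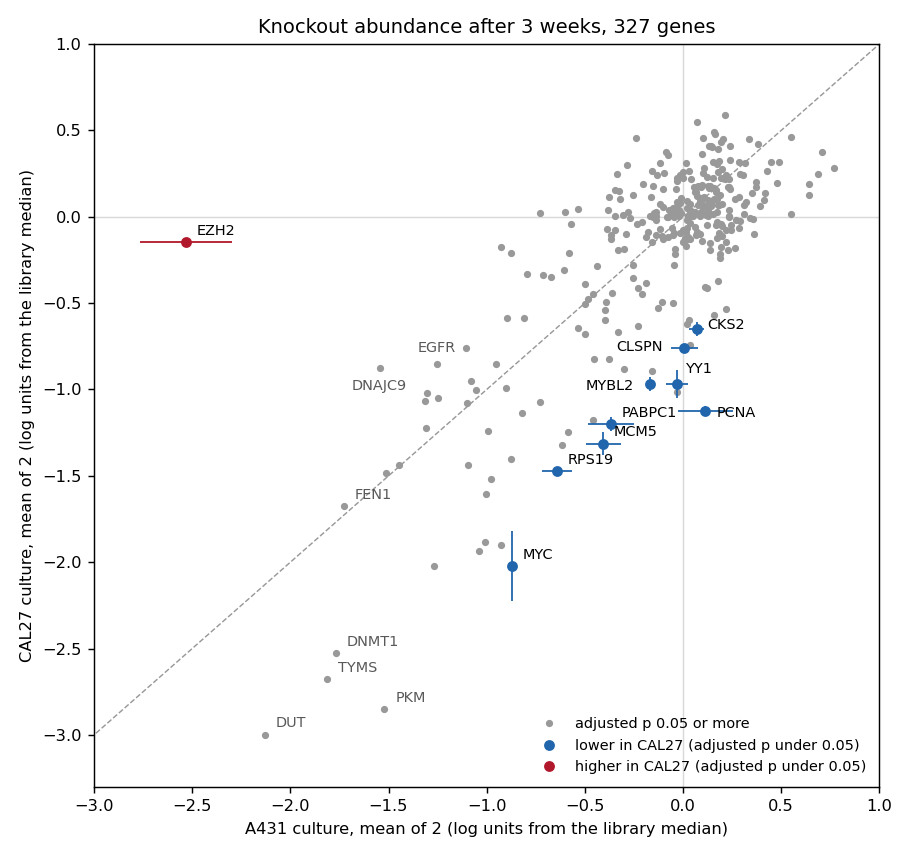
Mean of the 2 A431 cultures (x axis) against the mean of the 2 CAL27 cultures (y axis) for 327 genes, in log units from the library median; grey points did not pass limma, coloured points did, and their bars run from 1 culture to the other. EZH2 lies alone at the left near a CAL27 value of 0, and the 9 lower genes lie below the dashed line of equal values.

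EZH2 encodes the catalytic subunit of Polycomb repressive complex 2, which methylates histone H3 to keep genes silent. It lies on the minus strand of chromosome 7 in GRCh37 at chr7:148504349-148581413. Its values were -2.30 and -2.76 in A431 cultures a and b and -0.13 and -0.16 in CAL27 cultures a and b. Both A431 cultures lay more than 2 units below both CAL27 cultures. The difference was 2.38 (SE 0.18, 95% interval 1.94 to 2.83, adjusted p = 0.0035 in limma). Against the library median, EZH2 was lost in A431 (adjusted p = 0.0003) and did not pass in CAL27 (adjusted p = 0.49). No other gene had a positive difference above 1, the next being CDC20 at 0.75. The difference lay between 2.15 and 2.62 when 1 culture was left out, and the call was lost without A431 culture b (adjusted p = 0.0616), CAL27 culture a (adjusted p = 0.249) and CAL27 culture b (adjusted p = 0.153). Over all 16 alternatives EZH2 kept its sign, and it kept its call in 11 of them (adjusted p from 0.000313 to 0.998).

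Of 7 measured chromatin enzymes and regulators, EZH2 was the 1 higher gene and 0 were lower, beside 0.306% and 2.75% of all genes. Of the differences 5 were positive and 2 negative, beside 153 and 174 of all genes, with a median of 0.10 beside -0.02 over all genes. On the deposited values the list median was -0.02, beside -0.14 over all genes. The lysine deacetylase HDAC1, the remodeller HELLS and ATAD2, a bromodomain ATPase, had differences of 0.10, 0.03 and 0.26 that did not pass. REST, a repressor of neuronal genes, gave -0.30 and -0.18 in A431 against 0.53 and 0.38 in CAL27. Its cultures did not overlap between lines, but the difference of 0.69 (SE 0.13) missed the threshold (adjusted p = 0.051). REST passed in 5 of the alternatives, with adjusted p from 0.0408 to 0.0445. DNMT1, the maintenance DNA methyltransferase, was lost in both lines, at -1.50 and -2.04 in A431 and -2.58 and -2.47 in CAL27. Its difference of -0.76 did not pass (adjusted p = 0.096). SMARCA4, an ATPase of the SWI/SNF remodelling complex, lay between -0.56 and -0.02 in the 4 cultures, which overlapped between lines.

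PCNA, the sliding clamp that holds DNA polymerases on the template, had the most negative difference among the genes that passed. It gave 0.25 and -0.03 in A431 and -1.10 and -1.15 in CAL27. The A431 values bracket the library median, while both CAL27 values lie about 1 unit below it. The difference was -1.24 (SE 0.15, adjusted p = 0.0232 in limma). MCM5, a subunit of the replicative helicase, gave -0.50 and -0.32 in A431 against -1.38 and -1.24 in CAL27, a difference of -0.91 (SE 0.14, adjusted p = 0.0325). CLSPN encodes claspin, which links the moving fork to the checkpoint kinase. Its values were -0.06 and 0.07 in A431 and -0.74 and -0.78 in CAL27, a difference of -0.77 (SE 0.13, adjusted p = 0.0369).

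These 3 belong to the list of replication fork and licensing genes, of which 8 were measured. Of the 8, 3 were lower and 0 were higher, beside 2.75% and 0.306% of all genes. The median difference of the list was -0.65, beside -0.02 over all genes. It stayed negative under each scaling tried, but was smaller with quantile normalization (-0.49) and after division by the core fitness median, which gives values in units of that median (-0.37). GINS2, a subunit of the helicase complex, and the helicase subunits MCM7 and MCM3 had differences of -0.97, -0.54 and -0.34 and did not pass. FEN1, the flap endonuclease, stood at 0.05. DNAJC9, a histone chaperone listed here for its role at the fork, had the opposite sign. It gave -1.52 and -1.57 in A431 against -0.66 and -1.09 in CAL27, and its difference of 0.67 did not pass (adjusted p = 0.096). The members thus ran from -1.24 to 0.67.

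MYC, the growth-promoting transcription factor, gave -0.88 and -0.86 in A431 and -2.23 and -1.82 in CAL27. It was lost in both lines, and more in CAL27, by -1.15 (SE 0.17, adjusted p = 0.0325). YY1, a zinc finger factor that binds many promoters and enhancers, gave 0.03 and -0.08 in A431 against -1.05 and -0.89 in CAL27. Its A431 values lay on the library median, and the difference was -0.94 (SE 0.14, adjusted p = 0.0325). MYBL2, a transcription factor that drives genes of mitosis, gave -0.15 and -0.19 in A431 and -1.01 and -0.93 in CAL27, a difference of -0.80 (SE 0.13, adjusted p = 0.0325). CKS2, a small partner of cyclin-dependent kinases, gave 0.11 and 0.03 in A431 and -0.69 and -0.61 in CAL27. Its difference was -0.72 (SE 0.13, adjusted p = 0.0403). In A431 culture b CKS2 was among 9 genes listed with exactly the same value, so that value may not be a measurement of its own.

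MYBL2 and CKS2 were the only members called among 22 genes of mitosis and the anaphase-promoting complex. That is 2 lower and 0 higher, beside 2.75% and 0.306% of all genes, with a median difference of -0.22 beside -0.02. The list held both signs, 13 negative and 9 positive, beside 174 and 153 of all 327 genes. CDK1, the mitotic kinase, was at -0.39, and BIRC5, which encodes survivin, at -0.64 (adjusted p = 0.18 and 0.09). At the other end CDC20, the activator of the anaphase-promoting complex, gave -0.97 and -0.89 in A431 against -0.50 and 0.15 in CAL27. Its lines did not overlap, but the CAL27 cultures lay 0.65 apart and the difference of 0.75 did not pass (adjusted p = 0.14).

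PABPC1, which binds the poly(A) tail of messenger RNA, and RPS19, a protein of the small ribosomal subunit, were also lower in CAL27. PABPC1 gave -0.25 and -0.49 in A431 against -1.16 and -1.24 in CAL27 (difference -0.83, SE 0.14, adjusted p = 0.0369). RPS19 gave -0.56 and -0.72 in A431 against -1.49 and -1.45 in CAL27 (difference -0.83, SE 0.13, adjusted p = 0.0325). Both were lost in each line against the library median. Of 6 measured genes of the ribosome and translation, 2 were lower and 0 were higher, beside 2.75% and 0.306% of all genes. The median difference was -0.49, or -0.33 with quantile normalization and -0.18 after division by the core fitness median. RPSA and GNB2L1, which encode proteins that sit on the small ribosomal subunit, had differences of 0.13 and 0.01.

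Of the 9 lower genes, MCM5, MYC, PABPC1 and RPS19 were below the library median in both lines. The other 5, PCNA, YY1, MYBL2, CLSPN and CKS2, passed in CAL27 and did not pass in A431. PCNA, MCM5 and MYC belong to the 21 core fitness genes. Of these 21, 3 were lower and 0 were higher, beside 2.75% and 0.306% of all genes. The core fitness list had a median difference of -0.73. That median moved to -0.28 with quantile normalization. The part that the lower level of these genes in CAL27 had in the lower calls was not tested. Dividing each column by its own core fitness median left 0 of the 9 calls. It also lost the call of EZH2, whose difference was then 2.49 in units of that median. Each of the 9 kept its sign under every alternative run and kept its call in 4 to 9 of 14 to 16 alternatives, most often PCNA (9 of 15). Without A431 culture a, A431 culture b, CAL27 culture a or CAL27 culture b, none of the 9 passed, with differences from -1.38 to -0.68.

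**Figure D2:**
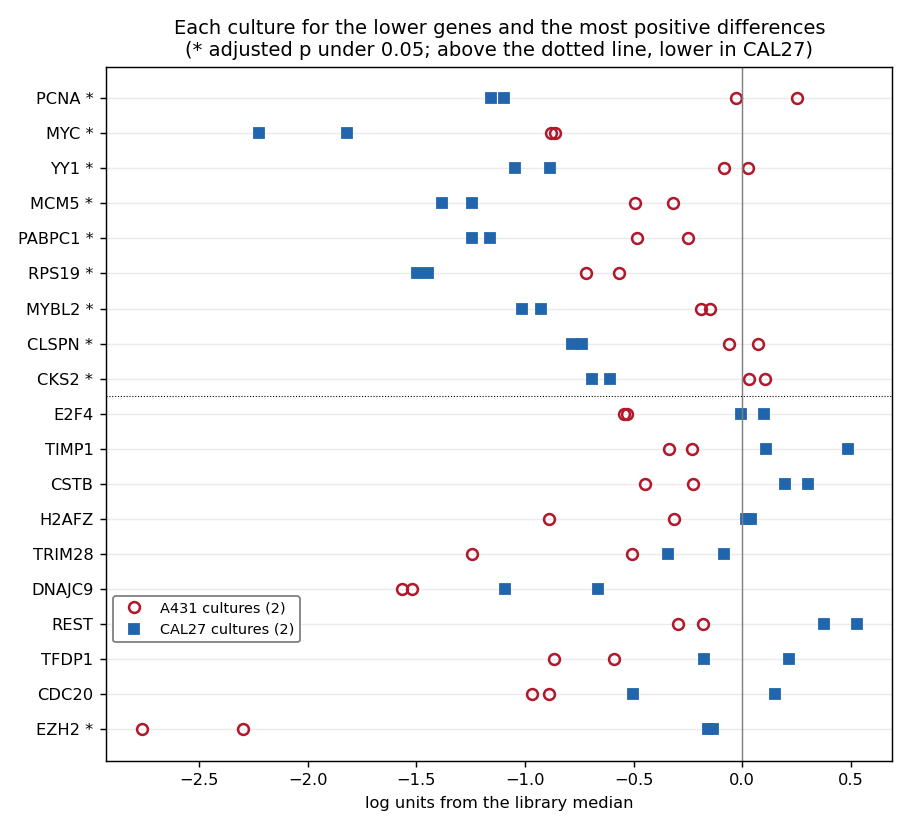
Value of each A431 culture (open circles) and CAL27 culture (filled squares) in log units from the library median, for the 9 lower genes and the 10 most positive differences; an asterisk marks an adjusted p under 0.05. Each gene shows 2 separate pairs, and CDC20, TRIM28 and H2AFZ show wide pairs.

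The most negative difference of all 327 genes did not pass. PKM, pyruvate kinase, the last step of glycolysis, gave -1.66 and -1.38 in A431 and -3.26 and -2.44 in CAL27, a difference of -1.33 (SE 0.28, adjusted p = 0.063). Its CAL27 cultures differed by over 0.8. TYMS, which makes thymidylate, gave -1.87 and -1.76 in A431 and -2.43 and -2.92 in CAL27, a difference of -0.86 (adjusted p = 0.067). The TYMS difference was -0.20 with quantile normalization (adjusted p = 0.56) and -0.24 after division by the core fitness median (adjusted p = 0.65). DUT, which clears dUTP from the nucleotide pool, gave -2.74 and -1.52 in A431 and -2.86 and -3.14 in CAL27. A431 culture a therefore lay close to the CAL27 cultures and far from culture b, and the difference of -0.87 did not pass (adjusted p = 0.23). BRCA1, a DNA repair gene, showed the same spread in A431, at -1.57 and -0.51, against -1.69 and -2.18 in CAL27 (difference -0.89, adjusted p = 0.21). With quantile normalization the differences of PKM, DUT, BRCA1 and DNMT1 were also smaller, at -0.82, -0.39, -0.59 and -0.21. The A431 cultures differed by more than 1 unit for 6 genes, BRCA1, DUT, PFN1, SH3PXD2A, SMC4 and UBE2C, and the CAL27 cultures for 2, SMC4 and TUBB.

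After EZH2, the 9 most positive differences belonged to CDC20, TFDP1, REST, DNAJC9, TRIM28, H2AFZ, CSTB, TIMP1 and E2F4, and none of these 9 passed. CDC20, TFDP1, TRIM28, H2AFZ and E2F4 were below the library median in A431 by limma and did not pass in CAL27. TFDP1, the partner with which E2F factors bind DNA, gave -0.59 and -0.87 in A431 against -0.18 and 0.22 in CAL27 (difference 0.75, adjusted p = 0.087). E2F4, an E2F factor of quiescent cells, gave -0.54 and -0.53 in A431 against -0.01 and 0.10 in CAL27 (difference 0.58, adjusted p = 0.067). E2F1, an activating member of the same family, went the other way, at 0.41 and 0.03 in A431 against -0.48 and -0.58 in CAL27 (difference -0.75, adjusted p = 0.067). E2F1 was named after its values were seen. The list of G1 and E2F control had 8 measured genes and held TFDP1 and E2F1 but not E2F4, whose difference was positive. Of these 8, 0 passed in either direction. Their median was -0.16, beside -0.02 over all genes, and 6 of the 8 were negative, beside 174 of 327.

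TRIM28, a corepressor that silences repeats, gave -0.51 and -1.25 in A431 against -0.34 and -0.08 in CAL27 (difference 0.66, adjusted p = 0.21). H2AFZ, the histone variant H2A.Z, gave -0.89 and -0.31 in A431 against 0.02 and 0.04 in CAL27 (difference 0.63, adjusted p = 0.15). CSTB, an inhibitor of cathepsins, and TIMP1, an inhibitor of matrix metalloproteinases, had differences of 0.59 and 0.58 (adjusted p = 0.083 and 0.12). All of these genes had A431 and CAL27 cultures that did not overlap, as did 76 genes of the library in this direction (23.2%) and 107 in the other (32.7%).

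Each of the 9 genes listed as histones and architectural chromatin proteins had a positive difference, as did 153 of the 327 genes. Their median was 0.36 beside -0.02 over all genes. The median stayed positive under each scaling tried, but 3 of the 9 differences were negative on the deposited values, as were 236 of all genes, and 1 after division by the core fitness median. None of them passed, and 5 of the 9 were higher at an unadjusted p under 0.05, beside 8.87% of all genes. The largest were DNAJC9 at 0.67, H2AFZ at 0.63, HMGB1, a DNA-bending protein, at 0.50 and HIST1H4C, a histone H4 gene, at 0.46. DNAJC9 is a histone chaperone, and NASP, another measured histone chaperone that the list leaves out, was at -0.09. The shared sign thus depends on which genes were listed. The 10 S100 proteins and annexins, calcium-binding proteins of the epidermis and the cell membrane, all had negative differences, between -0.44 for ANXA2 and -0.03 for S100A10, as did 174 of the 327 genes. Their median was -0.18, 0 passed, 0 had an unadjusted p under 0.05, and 1 of the 10 turned positive when columns were centred on a trimmed mean.

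In the lists of keratins, cell junctions, keratinocyte differentiation and squamous transcription factors, 0 genes passed in either direction. The 9 keratins had a median difference of -0.29, and 7 of the 9 were negative, beside 174 of all 327 genes. Under the other scalings 6 to 8 of the 9 keratins were negative. At an unadjusted p under 0.05, 3 of them were lower, beside 13.8% of all genes, and 6 did not overlap between lines in that direction, beside 32.7%. KRT14, a keratin of the basal layer, was at -0.63 (adjusted p = 0.059). The 13 cell junction genes had a median of 0.17, the 22 genes of keratinocyte differentiation 0.04 and the 12 squamous and epidermal transcription factors 0.07, with 0 calls in each. Of the 13 cell junction genes 10 were positive, beside 153 of all genes, or 7 on the deposited values. In that direction 7 of the 13 did not overlap between lines, beside 23.2%, and 1 had an unadjusted p under 0.05, beside 8.87%. TP63, the master factor of stratified epithelium, was lost in both lines, at -1.22 and -1.39 in A431 and -1.02 and -1.02 in CAL27 (difference 0.28, 95% interval -0.04 to 0.60). NOTCH3, a receptor of the Notch pathway, lay between -0.11 and 0.12 in the 4 cultures.

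EGFR, the receptor for epidermal growth factor, was lost in both lines, at -1.20 and -1.30 in A431 and -0.54 and -1.17 in CAL27. The difference was 0.40 (95% interval -0.13 to 0.93, adjusted p = 0.33), so a difference of either sign is within the error. ITGB1, the integrin beta 1 subunit that anchors cells to matrix, gave -0.86 and -0.30 in A431 against -0.10 and -0.32 in CAL27, and the lines overlapped. FERMT1, the integrin activator kindlin 1, gave -0.17 and -0.25 in A431 against -0.17 and -0.72 in CAL27. Its difference of -0.24 turned to 0.04 without CAL27 culture b. The 10 integrins and adaptors measured had a median difference of 0.12, beside -0.02 over all genes, and 0 passed. On the deposited values these medians were 0.003 and -0.14. CDKN2B, an inhibitor of the G1 kinases, had a difference of -0.004, and CDKN2A and SMAD3 had no row in the tables.

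**Figure D3:**
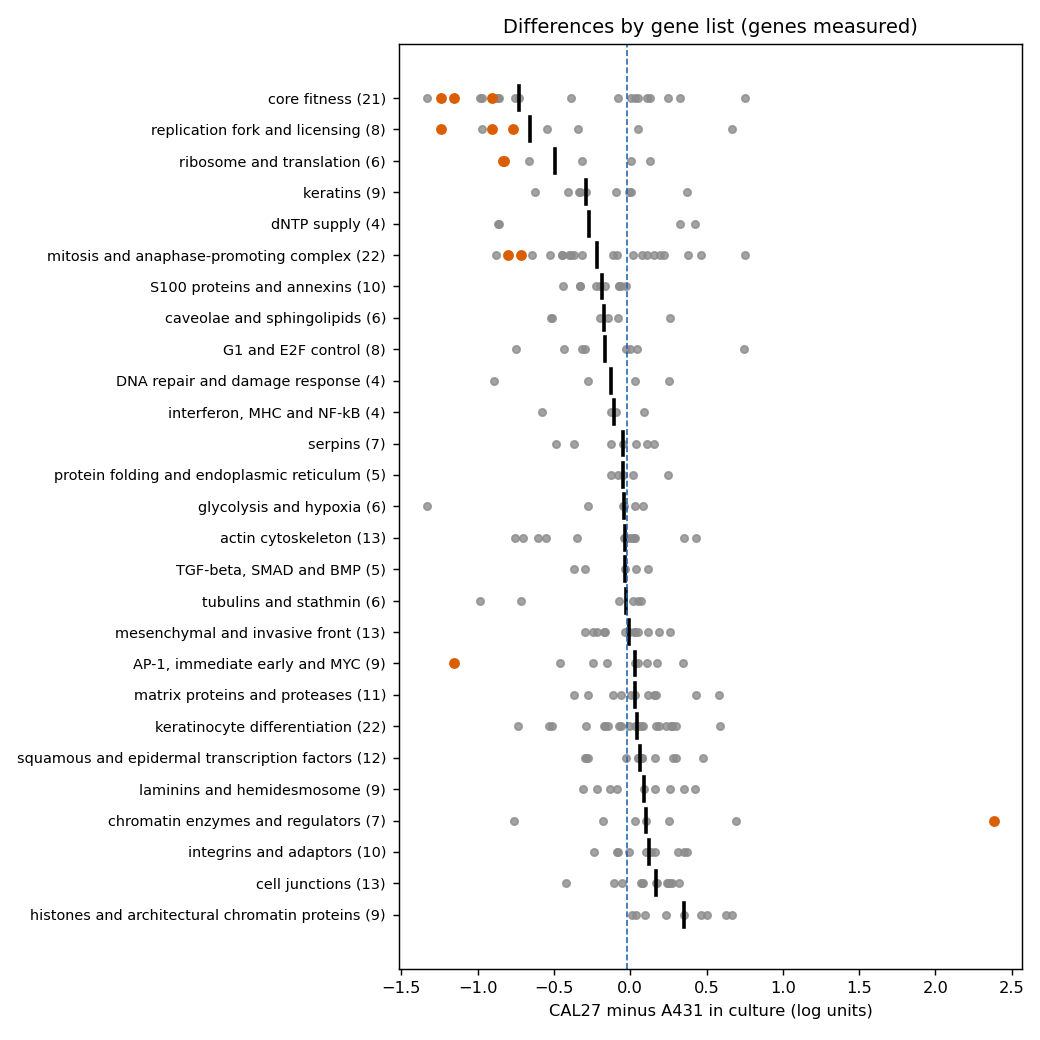
CAL27 minus A431 in culture (log units) for each member of 27 gene lists, with the number of genes measured in brackets; black bars are list medians, orange points passed limma at an adjusted p of 0.05, and the dashed line is the median over all genes, -0.02. Core fitness, replication fork and translation lists lie furthest left, histones furthest right, and EZH2 stands alone at 2.38. A gene may be in more than 1 list.

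Each line's own losses were read against its library median in the same fit. In A431, 62 genes were below it (19% of those tested) and 18 above (5.5%), and in CAL27 70 were below (21.4%) and 20 above (6.12%). On the deposited values, relative to the non-targeting guides, 198 were below and 3 above in A431, and 260 below and 0 above in CAL27. Of the losses, 44 genes were shared, 18 passed in A431 and not in CAL27, and 26 passed in CAL27 and not in A431. The test of the line difference called 1 of those 18, EZH2, and 5 of those 26, so a call in 1 line alone mostly did not show that the lines differed. Across genes the means of the lines had a Pearson r of 0.76 and a Spearman rho of 0.61, given as a description.

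The genes called in culture were then followed in xenograft tumors of the same lines, taken after about 2 months from SHO mice, which are hairless and immunodeficient. There were 8 tumors of A431 and 10 of CAL27, and the labels give the tumors initial samples of their own. Tumors of 1 mouse cannot be picked out from the labels. EZH2 in A431 tumors ranged from -2.19 to 0.12 with a median of -0.87, and in CAL27 tumors from 0.48 to 3.82 with a median of 2.64. No A431 tumor reached the lowest CAL27 tumor. The tumor difference was 3.22 (SE 0.44, adjusted p = 2.43e-05 in limma), against 2.38 in culture. EZH2 knockouts thus lay above the library median in all CAL27 tumors, where they were near it in CAL27 culture. The tumor difference exceeded the culture difference by 0.83 (SE 0.97), which did not pass in 1 fit with a shared spread (adjusted p = 0.9998) or with each setting's own spread (adjusted p = 0.26), and it turned to -2.24 with columns divided by their SD.

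In tumors 38 genes were lower in CAL27 (11.6%) and 26 higher (7.95%), or 61 and 5 on the deposited values. Among the 9 lower genes of culture, MYC, PABPC1 and RPS19 were also called lower in tumors. MYC in tumors averaged -0.92 ± 1.21 in A431 (SD, n = 8) and -2.48 ± 1.04 in CAL27 (SD, n = 10), a difference of -1.56 (adjusted p = 0.0258 in limma). PABPC1 averaged -0.20 ± 0.62 in A431 tumors and -1.63 ± 1.02 in CAL27 tumors (difference -1.43, adjusted p = 0.0178). RPS19 averaged 0.04 ± 0.47 in A431 tumors and -1.78 ± 1.39 in CAL27 tumors (difference -1.82, adjusted p = 0.0108). For each of these 3 genes the tumors of the lines overlapped. PCNA, YY1 and MCM5 had negative tumor differences of -0.92, -0.98 and -1.37 that did not pass (adjusted p = 0.35, 0.12 and 0.18). MYBL2, CLSPN and CKS2 had tumor differences of 0.56, 0.05 and 0.72, with the sign opposite to culture, and none passed.

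**Figure D4:**
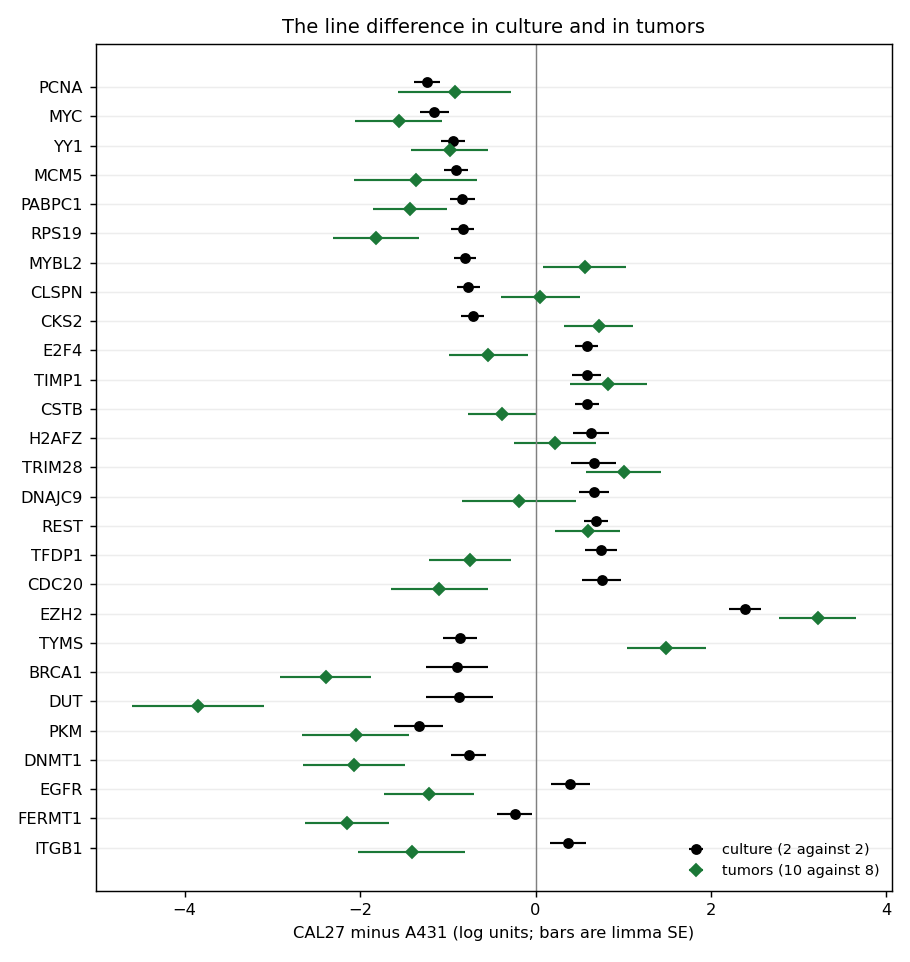
CAL27 minus A431 in log units in culture (black circles, 2 cultures a side) and in tumors (green diamonds, 10 CAL27 and 8 A431 tumors), with bars of 1 limma SE, for the genes called in culture, the most positive differences and other named genes. EZH2 lies right of 0 in both settings, and TYMS has a negative difference in culture, which did not pass, and a positive one in tumors.

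The line difference of TYMS and DEGS1 was negative in culture, where neither passed, and positive in tumors. TYMS averaged -1.09 ± 0.75 in A431 tumors (SD, n = 8) and 0.40 ± 1.11 in CAL27 tumors (SD, n = 10), a difference with the sign opposite to culture (1.49, adjusted p = 0.0197 in limma). DEGS1, a desaturase that makes ceramide, gave 0.77 and 0.52 in A431 culture against 0.27 and -0.02 in CAL27 culture, a difference of -0.51 (adjusted p = 0.15). All 10 CAL27 tumors, from 1.84 to 4.30, lay above the 8 A431 tumors, from 0.21 to 1.83. TUBB4B, a beta tubulin, had the same sign in both settings, with a difference of -0.72 in culture (adjusted p = 0.051) and -3.10 in tumors, where the lines did not overlap. DEGS1 and TUBB4B were named after their values were seen. In the fit with 1 shared spread, 0 of 327 genes differed between settings in their line difference at an adjusted p of 0.05, and 9 had an unadjusted p under 0.05. With the spread of each setting estimated on its own, limma called 47 genes (14.4%), 19 with a more positive line difference in tumors and 28 with a more negative one, and 85 had an unadjusted p under 0.05. TYMS (adjusted p = 0.0023), DEGS1 and TUBB4B (adjusted p = 0.0021 each) were among the 47.

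**Figure D5:**
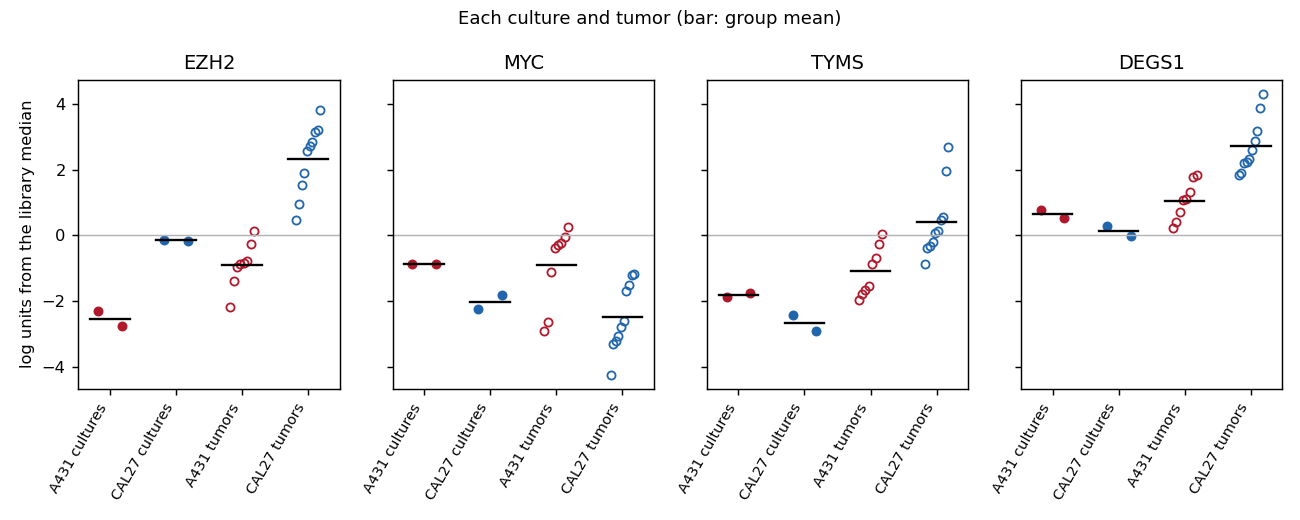
Each culture (filled) and tumor (open) of A431 (red) and CAL27 (blue) for EZH2, MYC, TYMS and DEGS1, in log units from the library median, with bars at group means and tumors sorted by value. For EZH2 no A431 tumor reaches the lowest CAL27 tumor, and for TYMS CAL27 is the lower line in culture and the higher one in tumors.

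The 10 called genes lay on 8 chromosomes, in coordinates of the GENCODE annotation lifted to GRCh37, which the tables themselves do not name. The guides' own cut sites were not used here. PCNA (chr20:5095599-5107272, minus strand) and MYBL2 (chr20:42295659-42345135, plus strand) lie on opposite arms of chromosome 20. The 7 measured genes of that chromosome had a median difference of -0.52, beside -0.02 over all genes, and 6 of them were negative, beside 174 of 327. Medians of other chromosomes ran from -0.37 (chromosomes 15 and 17) to 0.26 (chromosome 3). MYC and PABPC1 both lie on the long arm of chromosome 8, whose 11 measured genes had a median of -0.04. CLSPN lies at chr1:36185819-36235579 (minus strand), CKS2 at chr9:91926110-91931618 (plus strand), YY1 at chr14:100704635-100749125 (plus strand), RPS19 at chr19:42364325-42376993 (plus strand) and MCM5 at chr22:35796127-35821424 (plus strand). The copy number of these regions in the lines was not measured here, and its part in the differences was not tested.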

How the data were processed

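The submitters' processing notes name Bowtie2. Its version, the genome build, the log base and the way guides were summed per gene are unstated in the sources used here. As values the authors deposited log fold changes per gene (treated as log2-type values of unstated base) without counts, with the non-targeting row at 0 in every column, so depth is unknown and no count test was possible. No guide sequence was in the files used.

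Each column was centred on its median over 327 genes, leaving out the non-targeting row. The 4 culture columns were fitted with limma 3.58.1 in R 4.3.3 (lmFit, eBayes, two-sided, Benjamini-Hochberg at 0.05 over all genes), and so were 18 tumor columns. Setting both kinds of table side by side assumes that they use the same log base. Gene positions came from GENCODE v44lift37 on GRCh37 (325 genes placed, 14 by a synonym).

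The naming rule took up to 15 genes per direction that passed without overlap between lines, or, where fewer than 5 passed, the 10 most extreme, plus 18 fixed names. Other genes that did not pass, such as KRT14, BIRC5, GINS2, HMGB1 and NASP, are examples from outside this rule. Of 29 gene lists, 27 had at least 3 measured genes; the EGFR, MAPK and PI3K signalling list had 2 and the Notch list 1. Genes and lists were chosen with earlier results of these data known, and no set test was run. The alternatives were other centring and scaling, other spread estimates, other gene sets and leaving out each culture.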

Additional observations from a re-analysis of the deposited data

Results flagged for a closer look

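In the Welch-type t test on the limma SEs of the separate culture and tumor fits, the line difference differed between settings for 47 of 327 genes (14.4%). The limma fit with 1 shared spread called 0, with 9 at an unadjusted p under 0.05. Only 34 genes were checked here, those of the naming rule with DEGS1 and TUBB4B added because of these same values. Of these 34, the genes that follow were among the 47. Other genes mentioned in the report were not checked. The value for each is CAL27 minus A431 in tumors, minus the same in culture. It was positive for CKS2 (1.44, adjusted p = 0.0225), TYMS (2.35, adjusted p = 0.0023) and DEGS1 (2.19, adjusted p = 0.0021). It was negative for CDC20 (-1.85, adjusted p = 0.0337), TFDP1 (-1.49, adjusted p = 0.0416), EGFR (-1.62, adjusted p = 0.0483), FERMT1 (-1.91, adjusted p = 0.0167), DUT (-2.98, adjusted p = 0.02) and TUBB4B (-2.39, adjusted p = 0.0021).

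In 1 of 68 tumor groups examined (the same 34 genes in each line), 1 tumor stood far from the rest: a DUT value of -6.29 in an A431 tumor, where the median of the 8 tumors was -1.05. Chance alone flags about 1 in 20 such groups.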

How the results depend on the processing

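No paired analysis was possible because the value columns carry no replicate numbers. Against 9 lower and 1 higher call, the deposited values gave 21 lower (they move the median difference of all genes by -0.12), division by the SD 1 lower, quantile normalization 1 lower, and division by the core fitness median 0 lower and 0 higher. A mean-dependent prior gave 2 lower and 2 higher, a robust prior 14 lower and 2 higher, a spread shared with the tumors 0 and 0, and a test beyond 0.25 log units 1 lower. Leaving out the core fitness and cell cycle lists gave 5 lower and 2 higher, leaving out genes with shared values 2 higher, and a trimmed mean 2 higher. Without 1 culture there were 0 lower and 0 to 1 higher calls; the lone culture of a line is then assumed to vary like the others.

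On the deposited values, added after seeing the data, 198 genes were lower and 3 higher than the reference in A431, and 260 and 0 in CAL27. Tumor calls of 38 lower and 26 higher became 61 and 5 on the deposited values and 21 and 15 after division by the SD. The 0 differences between settings became 47 in the Welch-type t test with each setting's own spread. That of EZH2, 0.83 in log units, was -2.24 in SD units after division by the SD. Signs turned for 3 named genes that did not pass: CDKN2B (0.024 with a trimmed mean, 0.030 with quantile normalization, -0.086 to 0.077 without 1 culture), FERMT1 (-0.511 to 0.039 without 1 culture) and SMARCA4 (-0.394 to 0.031 without 1 culture). The causes were not tested.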
